A study of Mus musculus with 8 samples.

Results

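Glutamate receptors and the small membrane proteins that travel with them were followed in cultured mouse hippocampal neurons before and after depolarisation. The genes were chosen by name: the AMPA, kainate, NMDA and delta subunit families, the metabotropic receptors, and 8 auxiliary subunits (Neto1, Neto2, Cnih2, Cnih3, Shisa6, Shisa7, Shisa9 and Gsg1l), taken from probe sets annotated to 1 gene, with the brightest probe set standing for each gene. This gave 31 genes of 22180 named genes on the array, out of 34 symbols that the names allow. The other 3 were not analysed here. All 8 arrays came from C57BL/6J mice: hippocampi were taken from embryos at E18.5, dissociated, plated in medium containing glutamate, given AraC, which kills dividing cells, at medium changes, and kept for 11 days in vitro. The cultures of 4 arrays were untreated. The other 4 were held in 55 mM KCl for 4 h, a potassium load that depolarises neurons and lets calcium in. Each array carries a mouse number of its own, and replicates are numbered 1 to 4 in both groups. Values are log2 probe set values from RMA, which normalizes arrays together and compresses differences near background. The level of one gene cannot be set against that of another.

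Glutamate is the main excitatory transmitter of the hippocampus. AMPA receptors carry most of the fast current, NMDA receptors admit calcium when the membrane is already depolarised, kainate receptors act on both sides of the synapse, and metabotropic receptors signal through G proteins. Auxiliary subunits set how long the channels stay open and where they sit, and scaffold proteins such as the Homer and PSD-95 families hold the receptors at the postsynaptic density. In neurons, calcium entry drives immediate-early genes such as Fos through the cAMP response element, which CREB binds.

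None of the 31 receptor and auxiliary genes passed the test after 4 h of KCl (limma adjusted p under 0.05 over all 22180 genes), where 2.36% of all genes did. Before adjustment, 3 of 31 had a limma p under 0.05, all lower after KCl, against 13.0% of all genes in either direction and 7.34% lower. These 3 were the kainate subunit Grik3, the kainate receptor partner Neto1 and the AMPA receptor partner Shisa9. For none of the 31 did the KCl arrays lie entirely beyond the untreated arrays, as they did for 8.16% of all genes. Log2 changes, given throughout as KCl minus untreated, ran from -0.64 for Grik3 to 0.18 for Grik2. Their median was -0.06, beside -0.01 over all genes. With the replicate number added to the model as a block, limma also called 0 of 31, where 4.44% of all genes passed. Its count at an unadjusted p under 0.05 was again 3, beside 18.2% of all genes, and a linear model without moderation called 0, with 1 at an unadjusted p under 0.05.

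Activity reference genes, chosen with their response in these arrays known, were set beside the receptors for scale and are no independent check. Of 10 such genes, 8 rose past the threshold. Npas4 and Egr1 did not pass (limma adjusted p = 0.0517 and 0.213), though both were higher in 4 of 4 same-numbered pairs. Their log2 changes were 4.05 and 1.26, and for Npas4 every KCl array was above every untreated one. With the replicate block Npas4 passed too (0.0324), making 9 of 10. The median log2 change of that list was 3.63.

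The size of change that the data still allow was read from the 95% confidence intervals of the log2 changes, which are not adjusted over genes. For 27 of 31 genes the interval lay within a 2-fold change in either direction, or 87.1% beside 87.3% of all genes, and for 16 within 1.5-fold, or 51.6% beside 62.2%. With the replicate block these counts were 30 and 27, or 96.8% and 87.1%, beside 93% and 71.7% of all genes. Within 2-fold the receptor share was thus close to that of all genes without the block. The shares were not matched for brightness: the median probe set value was 8.06 over the 31 genes and 4.76 over all genes. The 4 genes with wider intervals were Gria4, Grik1, Grik3 and Grm2. A p that misses the threshold does not show that a transcript was unaltered, and in whole cultures fewer cells of a type and less RNA per cell cannot be told apart.

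**Figure D1:**
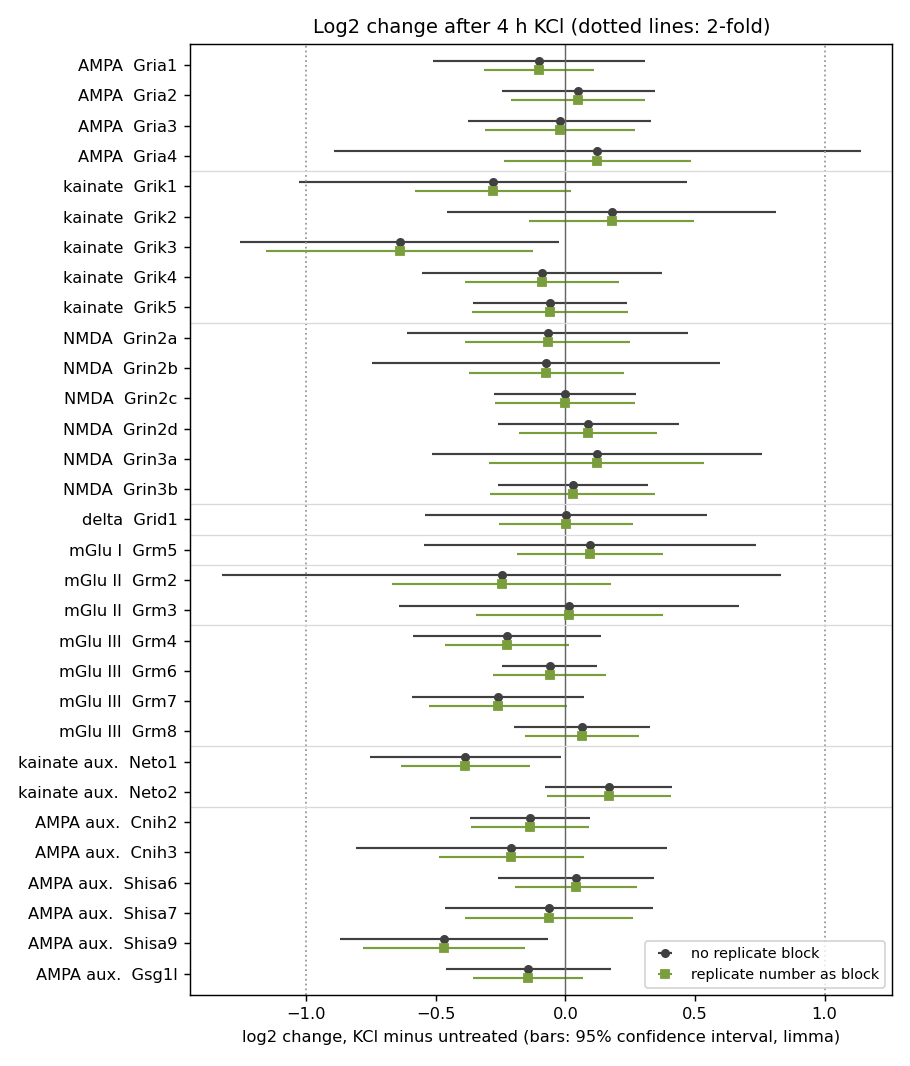
Log2 change after 4 h of KCl for the 31 genes, ordered by role, with 95% confidence intervals from limma without (circles) and with (squares) the replicate number as a block. Dotted lines mark a 2-fold change: 27 intervals lie within them without the block and 30 with it.

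The start sites of these genes were set beside those of 2 genes that rose, to show what the sequence upstream looks like. Promoter windows of 250 bases before the start, from the RefSeq table of build GRCm38.p6, were found for 18 of the 31 genes (22 windows) and 9 of the 10 activity reference genes. Searched on both strands were TGACG, the core of the cAMP response element, whose other strand reads CGTCA, and the full element TGACGTCA, which holds both. TGANTCA, the AP-1 site, was also searched. The 4 windows printed are those of the AMPA subunit Gria2, the kainate subunit Grik3 with the largest difference, the scaffold gene Homer1, which rose, and Fos. For Homer1, which has 2 windows, the one holding matches is shown. Capitals mark TGACG or CGTCA and TGANTCA, and each sequence reads 5′ to 3′ and ends at the base before the start site.
Gria2 (chr3:80802836-80803085, - strand): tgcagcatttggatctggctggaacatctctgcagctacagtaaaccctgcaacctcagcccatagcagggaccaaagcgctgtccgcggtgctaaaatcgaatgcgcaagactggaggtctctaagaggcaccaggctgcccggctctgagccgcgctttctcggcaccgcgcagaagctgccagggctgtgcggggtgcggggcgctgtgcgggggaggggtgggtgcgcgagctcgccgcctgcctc
Grik3 (chr4:125490446-125490695, + strand): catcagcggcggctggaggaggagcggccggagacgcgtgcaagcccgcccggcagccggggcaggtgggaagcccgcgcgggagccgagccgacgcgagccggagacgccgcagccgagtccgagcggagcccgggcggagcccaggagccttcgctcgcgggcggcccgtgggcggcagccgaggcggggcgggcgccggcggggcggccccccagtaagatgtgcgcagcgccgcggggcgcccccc
Homer1 (chr13:93303507-93303756, + strand): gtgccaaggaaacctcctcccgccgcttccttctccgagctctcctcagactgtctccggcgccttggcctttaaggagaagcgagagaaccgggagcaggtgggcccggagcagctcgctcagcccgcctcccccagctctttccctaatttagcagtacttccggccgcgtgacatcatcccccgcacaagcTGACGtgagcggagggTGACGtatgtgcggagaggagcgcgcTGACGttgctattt
Fos (chr12:85473640-85473889, + strand): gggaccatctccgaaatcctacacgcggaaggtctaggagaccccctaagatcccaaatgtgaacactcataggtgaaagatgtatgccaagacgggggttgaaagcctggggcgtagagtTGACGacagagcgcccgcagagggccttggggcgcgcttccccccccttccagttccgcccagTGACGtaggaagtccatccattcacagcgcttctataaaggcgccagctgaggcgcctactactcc

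In Homer1 the core TGACG stood 56, 40 and 14 bases before the start, and in Fos 129 and 66 bases before it. The windows of Gria2 and Grik3 held none, and that of Grik3 was 82% G and C against 64.8% in Gria2, 62.4% in Homer1 and 58.4% in Fos. Of the 22 receptor and auxiliary windows, 1 held TGACG or CGTCA (Grm8), or 4.55%, against 17.8% of all 32851 windows in the table and 8 of 9 windows of the activity reference genes. Those reference genes were chosen with their response known, so they are no independent comparison. Of the 4 other glutamate synapse genes that passed the KCl test, given below, 3 had windows, 4 in all. TGACG or CGTCA was in 2 of these 4 windows, 1 of Homer1 and 1 of Slc38a2. TGANTCA was in 2 of the 22 receptor and auxiliary windows (Grin3b and Grm8), or 9.09%, against 6.75% of all windows. The full TGACGTCA was in 0 of the 22 and in 0 of 9 reference windows, against 1.55% of all. A match describes these letters in these windows and is not a binding site, and elements farther away were not searched.

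AMPA receptors are tetramers of the Gria subunits, and Gria2 makes the edited channel poorly permeable to calcium. Gria2 stood at 11.41, 11.65, 11.72 and 11.98 in untreated replicates 1 to 4 and at 11.60, 11.78, 11.82 and 11.76 in the KCl replicates 1 to 4. The KCl arrays lay within the untreated range, and the log2 change of Gria2 was 0.05 (95% confidence interval -0.25 to 0.34, limma adjusted p = 0.958). Gria1, the subunit most tied to synaptic potentiation, stood at 10.63, 11.22, 11.14 and 11.25 untreated and at 10.58, 11.11, 11.01 and 11.14 after KCl. In all 4 same-numbered pairs the KCl array was the lower one, by amounts smaller than the gap between replicate 1 and the rest. The log2 change of Gria1 was -0.10 (interval -0.51 to 0.31, limma adjusted p = 0.924) and that of Gria3 -0.02 (interval -0.37 to 0.33). Gria4, a subunit more prominent in interneurons, stood at 6.69, 8.49, 8.37 and 8.44 untreated and at 7.29, 8.34, 8.21 and 8.64 after KCl. Both replicates 1 were far below the other 6 arrays, and the interval of Gria4 was accordingly wide, from -0.89 to 1.14.

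The balance of Gria1 against Gria2 within an array, a log2 difference in which array-wide shifts cancel, was -0.63 ± 0.16 untreated and -0.78 ± 0.18 after KCl (SD, n = 4 each). It differed by -0.15, less than 1 SD, in a two-sided exact permutation test over arrays (p = 0.286, adjusted p = 0.571 over the 2 balances tested). The smallest p that 4 against 4 arrays allow is 0.0286.

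Among AMPA receptor auxiliary subunits, Shisa9, which slows the recovery of AMPA receptors from desensitisation, stood at 8.25, 8.64, 8.86 and 8.63 untreated. After KCl it stood at 8.0, 8.38, 8.34 and 7.78. Each KCl array was below the untreated array of its number, but the group ranges overlapped because untreated replicate 1 was as low as the KCl arrays. The log2 change of Shisa9 was -0.47 (SE 0.18, interval -0.87 to -0.07, limma adjusted p = 0.284, and 0.111 with the replicate block). Cnih2, a cornichon that prolongs AMPA currents and helps receptors leave the endoplasmic reticulum, stood at 11.28, 11.15, 11.26 and 11.04 untreated and at 11.17, 11.13, 10.99 and 10.88 after KCl. Again 4 of 4 pairs were lower with overlapping groups, by a log2 change of -0.14 (interval -0.37 to 0.09). The related Cnih3 had a log2 change of -0.21, Gsg1l, a claudin-family partner, -0.14, Shisa7 -0.06 and Shisa6 0.04, none past the test.

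Kainate receptors are built from low-affinity subunits (Grik1 to Grik3) and high-affinity ones. Grik3, a subunit of presynaptic kainate receptors, stood at 5.46, 5.44, 5.85 and 5.05 in untreated replicates 1 to 4 and at 4.24, 4.49, 5.34 and 5.17 after KCl. KCl replicates 1 and 2 lay below every untreated array, whereas KCl replicates 3 and 4 lay among them. The mean of Grik3 after KCl, 4.81, was near the median of all genes, 4.76, and signal over background was not assessed. The fold was 0.642, a log2 change of -0.64 (SE 0.27, interval -1.26 to -0.02, limma adjusted p = 0.36, and 0.178 with the block). Grik2, the most studied principal subunit, stood at 8.63, 9.73, 9.82 and 9.69 untreated and at 9.21, 9.64, 9.85 and 9.88 after KCl. Only the replicates 1 stood apart, and the log2 change was 0.18 (interval -0.46 to 0.81). Grik1 stood at 5.00, 5.84, 5.92 and 5.81 untreated and at 4.46, 5.41, 5.73 and 5.86 after KCl, a log2 change of -0.28 (interval -1.03 to 0.47). The high-affinity subunits Grik4 and Grik5, which need a partner to form channels, had log2 changes of -0.09 and -0.06.

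Neto1 and Neto2 are membrane proteins with CUB domains that slow kainate receptor gating, and Neto1 also associates with NMDA receptors. Neto1 stood at 8.58, 9.20, 9.11 and 9.26 untreated and at 8.44, 8.75, 8.65 and 8.76 after KCl. The KCl array was lower in 4 of 4 pairs, and untreated replicate 1 was the single untreated array within the KCl range. The fold was 0.765, a log2 change of -0.39 (SE 0.16, interval -0.76 to -0.02, limma adjusted p = 0.355, and 0.102 with the block). Without untreated replicate 1 the log2 change was -0.54 and the adjusted p 0.0576. That was the smallest adjusted p of any of the 31 genes under any setting tried. Neto2 stood at 9.61, 10.00, 9.94 and 9.87 untreated and at 9.92, 9.97, 10.11 and 10.09 after KCl, a log2 change of 0.17 (interval -0.08 to 0.41). Whether the difference between Neto1 and Neto2 exceeded their spread was not tested.

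**Figure D2:**
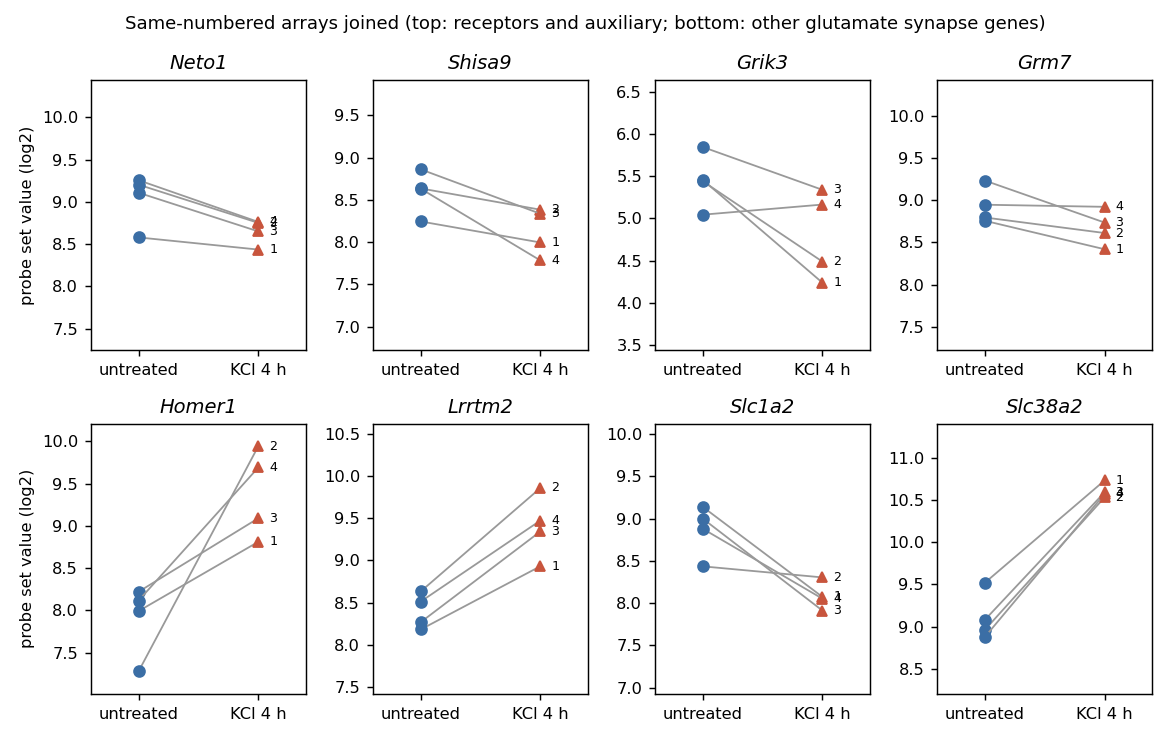
Probe set values (log2) of 4 receptor or auxiliary genes (top) and 4 other glutamate synapse genes (bottom) in each array, with same-numbered untreated and KCl arrays joined and the replicate number at the right. All panels span the same number of log2 units. Neto1, Shisa9 and Grm7 are lower in 4 of 4 pairs with overlapping groups, while Homer1, Lrrtm2 and Slc38a2 are higher in every KCl array than in any untreated array.

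NMDA receptors combine the obligatory subunit Grin1 with Grin2 or Grin3 subunits, and Grin2a replaces Grin2b at many synapses as neurons mature. Grin2b stood at 9.99, 11.20, 11.15 and 11.04 untreated and at 10.23, 10.86, 10.92 and 11.06 after KCl. Grin2a stood at 8.52, 8.53, 9.36 and 9.42 untreated and at 8.65, 8.77, 9.10 and 9.04 after KCl. The KCl arrays lay within the untreated range in both genes, with log2 changes of -0.07 each (intervals -0.75 to 0.60 and -0.61 to 0.47). The balance of Grin2a against Grin2b within an array was -1.88 ± 0.54 untreated and -1.88 ± 0.23 after KCl (SD, n = 4 each), with a two-sided exact permutation p of 0.971. Grin2d, a subunit of interneurons and early development, stood at 4.48, 4.39, 5.02 and 4.83 untreated and at 4.76, 4.58, 4.84 and 4.88 after KCl, a log2 change of 0.09. Grin3a, which makes channels that admit little calcium, had a log2 change of 0.12 (interval -0.52 to 0.76). Grin2c and Grin3b sat near the bottom of the scale, at group means of 4.15 and 4.15 and of 4.06 and 4.09, where RMA values say little about presence or absence.

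The delta receptor Grid1, which binds cerebellins across the synapse, stood at 6.65, 6.85, 7.51 and 7.43 untreated and at 6.68, 7.07, 7.49 and 7.20 after KCl. Its group means were 7.11 and 7.11. Among metabotropic receptors, the group I receptor Grm5, which couples to phospholipase C and binds Homer, stood at 8.71, 9.40, 9.78 and 9.82 untreated and at 8.95, 9.71, 9.82 and 9.61 after KCl. Both replicates 1 were the lowest arrays, and the log2 change was 0.10 (interval -0.54 to 0.74). The group II receptors Grm2 and Grm3 inhibit adenylyl cyclase, and Grm3 is also made by astrocytes. Grm2 stood at 5.08, 6.49, 5.58 and 4.30 untreated and at 4.59, 5.98, 5.17 and 4.73 after KCl, a log2 change of -0.25 (interval -1.33 to 0.83). Grm3 stood at 7.35, 8.23, 7.50 and 7.18 untreated and at 7.54, 7.92, 7.94 and 6.91 after KCl, a log2 change of 0.01.

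Of the group III receptors, Grm4, Grm7 and Grm8 act mainly as presynaptic brakes on release, and Grm6 is the postsynaptic receptor of retinal ON bipolar cells. Grm7 stood at 8.76, 8.80, 9.23 and 8.95 untreated and at 8.42, 8.61, 8.74 and 8.92 after KCl, lower in 4 of 4 pairs with overlapping groups. The log2 change of Grm7 was -0.26 (SE 0.15, interval -0.59 to 0.07, limma adjusted p = 0.547). A second probe set of Grm7 was also lower in 4 of 4 pairs, at 6.53, 6.81, 6.86 and 6.85 untreated and 6.33, 6.69, 6.30 and 6.09 after KCl. Its log2 change was -0.41 (SE 0.14, adjusted p = 0.25 with all probe sets tested). Grm4, Grm6 and Grm8 lay between 3.73 and 4.80 in all arrays, with log2 changes of -0.22, -0.06 and 0.06. Second probe sets of Grin2b, Grin2c, Grin2d and Grm6 were dimmer and had log2 changes of -0.08 to 0.0045.

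**Figure D3:**
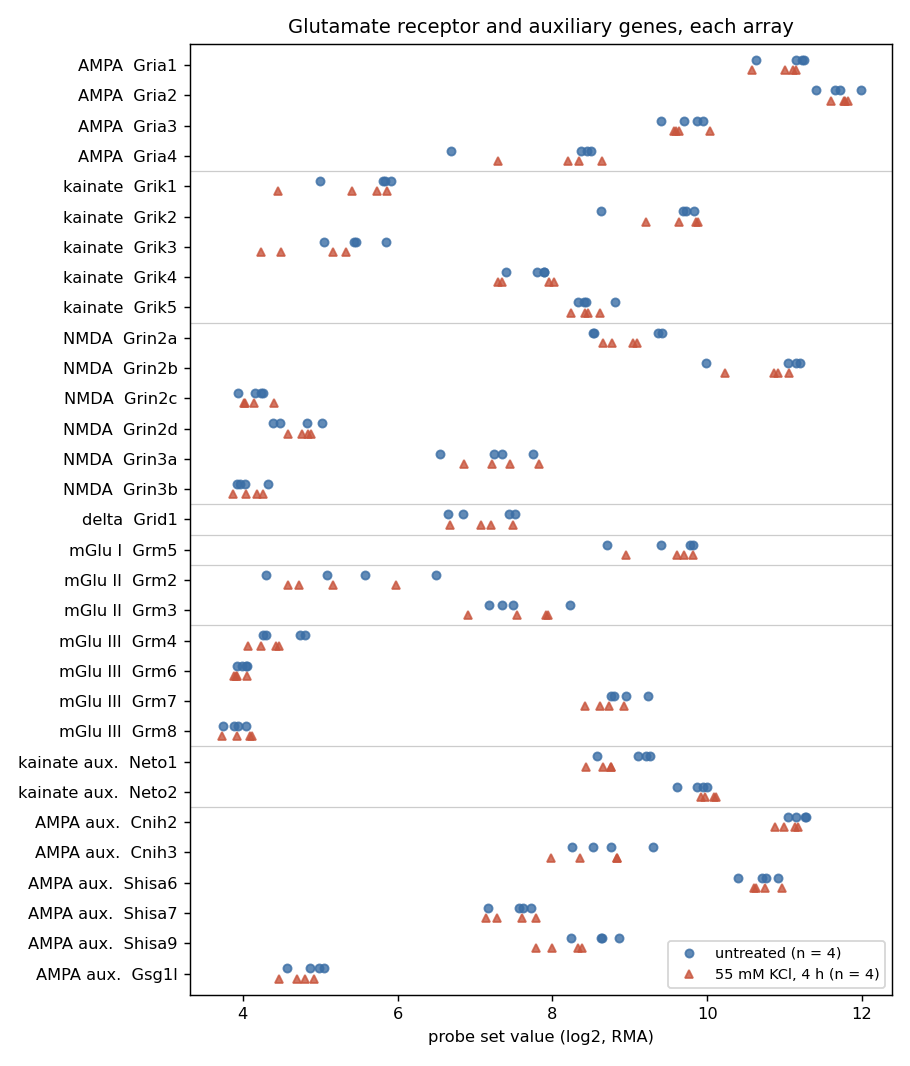
Probe set values (log2, RMA) of the 31 genes in every array, untreated as circles and KCl as triangles, ordered by role. The groups overlap for all 31 genes, and single low circles for Gria4, Grik2 and Grin2b are untreated replicate 1.

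Counted by pairs, 8 of 31 genes were lower after KCl in 4 of 4 same-numbered pairs (Gria1, Grm4, Grm6, Grm7, Neto1, Cnih2, Shisa9 and Gsg1l) and 0 were higher in all. In 1 of its pairs Grm6 was lower by 0.0008 log2 units, in effect a tie. Over all genes these shares were 13.2% and 11.0%. With quantile normalization repeated the count lower in all pairs was again 8, with 0 higher in all. With arrays centred on their medians it was 4 (Grm4, Neto1, Shisa9 and Gsg1l), and 1 gene was higher in all. A negative log2 change was found for 19 of 31 genes, or 61.3%, beside 52.9% of all genes. It was found for 19 with quantile normalization repeated and for 17 with centred arrays. The shares of all genes under these alternative scalings were not counted.

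Differences between replicate numbers were also measured. The range of the 4 pair means had a median of 0.48 log2 units over the 31 genes, beside 0.33 over all genes. The median size of the log2 change with KCl was 0.10, beside 0.12 over all genes. Neither comparison was matched for brightness, and 25 of the 31 genes were brighter than the median gene. A test of the replicate number in the blocked fit, added after the values were seen (limma F test, adjusted over all genes), passed for 3 of 31 genes, Gria4 (adjusted p = 0.0277), Grm2 (0.0388) and Grik1 (0.0428), beside 4.26% of all genes. Without both arrays numbered 1 it passed for 0 of 31 and for 0.0721% of all genes. That fit has fewer arrays and less power, so the loss of calls does not show which replicates differed. For Grm2 the highest and lowest pair means were 6.24 in replicate 2 and 4.52 in replicate 4.

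Both arrays numbered 1 lay below the other 6 for 12 of 31 genes, and above them for 0. The shares over all genes, which were not matched for brightness, were 8.01% and 8.73%. The 12 were the AMPA subunits Gria1, Gria2 and Gria4, the kainate subunits Grik1 and Grik2, the NMDA subunits Grin2b and Grin3a, Grid1, Grm5, Neto1, Cnih3 and Shisa6. With quantile normalization repeated the count below was 9 of 31, and with arrays centred on their medians 16. The shares of all genes under these scalings were not counted. In the deposited values, of 60 measured genes of 3 other glutamate synapse lists, given below, 16 lay below and 3 above. Among the 23 scaffold and trafficking genes of these lists, 10 lay below and 1 above. Leaving out both arrays numbered 1 left 0 of 31 genes past the KCl test.

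Markers of cell types also moved with the replicate number. The mean of 10 pan-neuronal markers was 10.31 and 10.38 in the arrays numbered 1 and 10.58 to 10.75 in the rest, with 6 of 10 below the other 6 arrays and 1 above. The mean of 10 astrocyte markers was 9.28 and 9.03 against 8.36 to 8.80, with 6 of 10 above and 0 below. Gfap, the astrocyte filament, stood at 11.11 and 11.25 in the arrays numbered 1 and at 10.45 to 10.84 in the other 6. GABAergic interneuron markers averaged 5.60 and 5.83 in the arrays numbered 1 and 5.99 to 6.68 in the rest, with 3 of 10 below the other 6 arrays and 2 above (Npy and Pvalb). Pyramidal and granule cell markers averaged 7.79 and 7.69 against 7.83 to 8.15, with 1 of 9 below and 0 above. The part of these cell types in the receptor values was not tested.

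Between treatments, 0 of 10 pan-neuronal, 0 of 9 pyramidal and granule cell and 0 of 10 interneuron markers passed the limma test (0, 2 and 1 at an unadjusted p under 0.05). Of 10 astrocyte markers 1 fell, the uptake transporter Slc1a2. With the replicate block, limma lost Slc1a2 (adjusted p = 0.062). It called the GABA-synthesising enzyme Gad2 lower (log2 change -0.49, adjusted p = 0.0458) and the progenitor factor Pax6 higher (0.92, 0.0461). Gad1, the other enzyme of GABA synthesis, was higher in 4 of 4 pairs (log2 change 1.08, limma adjusted p = 0.0765 with the block). Of the 10 interneuron markers, 6 had a negative and 4 a positive log2 change. For the 9 pyramidal and granule cell markers these counts were 5 and 4. The 2 at an unadjusted p under 0.05 went opposite ways, each with no overlap between groups. Neurod6 was lower (log2 change -0.64, limma adjusted p = 0.0843) and Prox1 higher (0.34, 0.188). The mean of the 9 was lower after KCl in each same-numbered pair, by least in replicates 2 (7.832 against 7.826). It ran from 7.79 to 8.15 untreated and from 7.69 to 7.98 after KCl. Mean levels in the untreated and KCl arrays ran from 10.31 to 10.75 and 10.38 to 10.74 for pan-neuronal markers, and from 8.36 to 9.28 and 8.37 to 9.03 for astrocyte markers. Microglial (4.15 to 4.41), oligodendrocyte lineage (4.76 to 4.94), endothelial and mural (4.27 to 4.78) and meningeal fibroblast (4.26 to 4.62) means stayed low in all 8 arrays. Single genes of these lists were brighter: the endothelial receptor Kdr stood at 7.76 to 8.34 in replicates 1 and 2 and 5.18 to 5.62 in replicates 3 and 4, Olig1 at 6.83 to 7.70 and Olig2 at 5.57 to 7.92. Progenitor and cycling markers averaged 5.60 to 6.07 untreated and 5.93 to 6.49 after KCl, higher in all 4 pairs, and 1 of 10, Pcna, rose (limma adjusted p = 0.0191). The part of these cells in the KCl values was not tested.

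**Figure D4:**
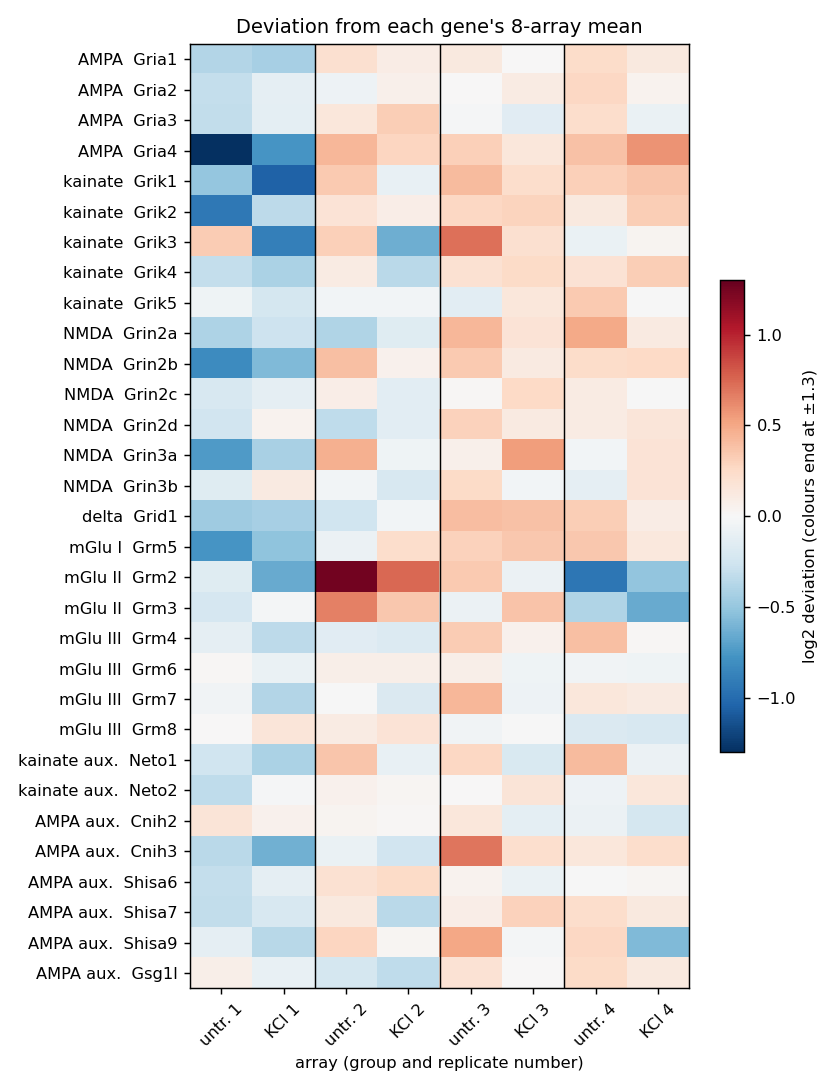
Deviation of each array from a gene's mean over 8 arrays (log2; red above, blue below), with arrays ordered by replicate number. The columns of both arrays numbered 1 are blue for most genes, and 12 of 31 genes have both arrays numbered 1 below the other 6.

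Other genes of the glutamate synapse were taken from 3 lists, 60 measured genes of 67 listed, of which 3 rose and 1 fell, beside 1.34% and 1.02% of all genes. Of 23 measured auxiliary and clustering proteins of AMPA receptors outside the naming rule, Lrrtm2, a postsynaptic adhesion protein that binds neurexin and stabilises AMPA receptors, rose 2.0-fold. It stood at 8.18, 8.63, 8.27 and 8.51 untreated and at 8.93, 9.86, 9.34 and 9.47 after KCl, with no overlap between groups (log2 change 1.00, SE 0.20, limma adjusted p = 0.0387). None of the other 22 passed, C1ql2 (log2 change -0.78, adjusted p = 0.187) and the endocannabinoid hydrolase Abhd6 (-0.38, 0.379) having the next smallest p, and the list's median was -0.17.

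Among 23 measured scaffold and trafficking genes, Homer1, which links group I metabotropic receptors to Shank scaffolds, rose 2.79-fold. It stood at 7.99, 7.28, 8.22 and 8.12 untreated and at 8.81, 9.94, 9.09 and 9.69 after KCl. Every KCl array was above every untreated one (log2 change 1.48, SE 0.29, limma adjusted p = 0.0401). Homer1 makes a short activity-induced form and long scaffold forms, which this single probe set was not used to tell apart. The other 22 did not pass, among them Arc, which drives AMPA receptor endocytosis (log2 change 1.56, adjusted p = 0.0915), and Dlg1 (0.47, 0.376). The PSD-95 gene Dlg4 had a log2 change of 0.04, and the list's median was -0.03.

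Of 14 measured genes of glutamate synthesis, vesicle loading and uptake, 1 rose and 1 fell. Slc38a2, a transporter that brings in glutamine, the precursor of transmitter glutamate, stood at 9.52, 8.96, 9.08 and 8.88 untreated and at 10.73, 10.53, 10.59 and 10.57 after KCl. The groups were far apart (2.83-fold, log2 change 1.5, SE 0.14, limma adjusted p = 0.00238). Slc1a2, the main astrocyte glutamate uptake transporter, stood at 9.14, 8.43, 9.0 and 8.88 untreated and at 8.07, 8.30, 7.91 and 8.05 after KCl. It fell to 0.583 of its untreated level, with no overlap between groups (log2 change -0.78, SE 0.16, limma adjusted p = 0.0479). The other 12, with Slc1a6 (-0.29, adjusted p = 0.361) and the vesicular transporter Slc17a7 (-0.33, 0.437) next by p, did not pass, and the list's median was -0.08. Slc1a3, the other astrocyte transporter, with overlapping groups, had a log2 change of -0.10.

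Of these 4 calls, that of Slc38a2 held with any single array left out (adjusted p up to 0.014). Those of Lrrtm2 and Homer1 held in 1 such fit, that without KCl replicate 1 (adjusted p = 0.018 and 0.031), and were lost in the other 7, at up to 0.112 and 0.118. That of Slc1a2 held only without untreated replicate 2 (0.021), was otherwise lost at up to 0.14, and was lost with the replicate block (limma adjusted p = 0.062) and with arrays centred on their medians (0.0513) or trended, robust moderation (0.0519). With quantile normalization repeated, Slc38a2 alone passed, Lrrtm2 standing at 0.0582, Homer1 at 0.0529 and Slc1a2 at 0.0544. With the block, 2 more list genes passed, the AMPA receptor partner Cacng2, or stargazin (log2 change -0.48, adjusted p = 0.0381), and the cystine-glutamate exchanger Slc7a11 (0.50, 0.0369), with Lrrtm2 at 0.00872 and Homer1 at 0.0481.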

How the data were processed

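Per the labels' protocols, RNA of 8 cultures was labelled for Affymetrix arrays with the WT Plus kit. The authors deposited 1 log2 value per probe set and array. RMA and Partek are named in the submitters' processing notes, and versions, settings, the genome build and any batch adjustment are not given in the sources used here. Scanner files were not used here, so signal over background was not assessed, and the number of arrays limits the precision.

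Of 34472 probe sets, 23521 had 1 gene symbol in the platform annotation, 1814 several and 9137 none. The brightest probe set was kept for each of 22180 genes. The KCl and untreated arrays were tested in R 4.3.3 with limma 3.58.1 (lmFit, eBayes, two-sided, Benjamini-Hochberg over all genes, threshold 0.05), without a block. The fit was also run on simulated arrays, drawn independently and with larger changes than those of the receptor and auxiliary genes. That run does not cover differences between replicate numbers or changes as small as theirs. The genes, lists and alternatives were chosen with earlier results of these data known. Named in full were genes at an unadjusted p under 0.05 and the brightest and smallest-p gene of each role, and in each list the genes past the threshold and the next 2 by p; Gria4, Grik1, Grin2a, Grm7's second probe set, Dlg4, Slc1a3, Cacng2, Slc7a11 and single marker genes were added after their values were seen. The 9 marker lists were written by hand.

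Deviations from group means correlated at 0.64, 0.23, 0.41 and 0.37 between same-numbered arrays, each over 0.1, so the fit with the number as a block was taken as a paired alternative. Arrays of different numbers reached 0.30 (untreated 3, KCl 4) and 0.27 (untreated 4, KCl 3), above the 0.23 of the arrays numbered 2. No label ties a number to a shared day or litter. Plots used Python 3.11.15 and matplotlib 3.10.9.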

Additional observations from a re-analysis of the deposited data

Results flagged for a closer look

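Of 62 groups of 4 arrays, 5 held an array whose gap to its nearest neighbour took up most of the group's range (Dixon's test, 95% level), a rule that chance meets in about 1 group of 20. In 4 of the 5 it was untreated replicate 1: Gria4 stood there at 6.69 against 8.37 to 8.49 in the other 3 untreated arrays, Grik1 at 5.00 against 5.81 to 5.92, Grik2 at 8.63 against 9.69 to 9.82 and Grin2b at 9.99 against 11.04 to 11.20. The fifth was Gria3 in KCl replicate 2, at 10.04 against 9.58 to 9.63. The KCl array numbered 1 was low as well for Gria4, at 7.29, Grik1, at 4.46, Grik2, at 9.21, and Grin2b, at 10.23.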

How the results depend on the processing

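No receptor or auxiliary gene passed the limma test in any of 552 values under 18 alternative settings, and the smallest adjusted p was 0.0576 (Neto1 without untreated replicate 1). The count was 0 of 31 with the replicate block and in every fit leaving out 1 array (0 to 0). Those smaller fits called fewer genes in all (186 to 501 beside 524), so a count staying at 0 there says little about stability. Direction varied: 64 of the 552 values had the opposite sign, and 11 genes never changed sign (Grik3, Grm4, Grm6, Grm7, Grm8, Neto1, Neto2, Cnih2, Cnih3, Shisa9 and Gsg1l). Over all genes the count past the threshold was 524. It was 985 with the replicate block, where the SE falls when same-numbered arrays deviate together, 129 in a linear model without moderation (89 higher, 40 lower) and 186 to 501 with 1 array left out. The count of 4 genes in the 3 glutamate lists was 5 with the replicate block, 1 with quantile normalization repeated and 1 without moderation. It was 1 to 3 with 1 array left out, and 2 with both arrays numbered 1 left out and the replicate block, a setting chosen after seeing the data. The causes of these shifts were not tested. For the subunit balances, with 1 array left out the difference ran from -0.26 to 0.14 for Grin2a against Grin2b and from -0.20 to -0.07 for Gria1 against Gria2, and within same-numbered pairs, the replicate block of this test, the exact permutation p was 1 and 0.25. These settings cannot reach 0.05 (the smallest exact p is 0.0571 with 1 array left out, 0.1 for 3 against 3 and 0.125 within pairs), so they say nothing about stability. Of the balances planned, 2 were not run. Centring arrays on their medians moved the median of all genes by 0.034 log2 units.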

Other observations

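Slc7a11, the exchanger that releases glutamate in return for cystine, ranged more widely between replicate numbers than any of the 31 receptor and auxiliary genes. It stood at 5.29, 7.37, 8.67 and 8.65 in untreated replicates 1 to 4 and at 5.85, 7.81, 9.08 and 9.24 in the KCl arrays of the same numbers. Each KCl array was above its same-numbered partner, by 0.40 to 0.59 log2 units, while the means of the 4 pairs spanned 3.38 log2 units. Its SE was 0.94 without the replicate block and 0.093 with it.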
